A study of Mus musculus with 2 samples.

Results

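Grb2, Abl1, Sos1, Map2k1, Map2k7, Mapk3, Mapk13 and Mapk14 encode an adaptor, a tyrosine kinase, a RAS exchange factor, MAP2 kinases and MAP kinases that carry signals from growth factor and stress receptors. These 8 genes were taken by symbol from the 55401 gene rows of the deposited table, each symbol had 1 row, and all 8 passed a minimum mean of 1 FPKM (fragments per kilobase, scaled by the authors to the depth of the library). They were selected on their count and FPKM values in these same 2 libraries, since Abl1, Grb2, Mapk13 and Map2k7 stood out in opposite directions. The values below are therefore a description with no test.

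The study sequenced poly(A) RNA of myeloid-derived suppressor cells (MDSCs), a mixture of immature neutrophil-like and monocyte-like cells, from C57BL/6 mice aged 8 weeks. One library came from LysM-cre, Mettl3fl/fl mice, in which a Cre recombinase driven from the lysozyme 2 locus of myeloid cells can delete floxed Mettl3 (1 library). The other came from Mettl3fl/fl mice without Cre (1 library, called the floxed control here). The mice carried MC38 colon carcinoma cells (one label of the LysM-cre library reads MC39), the MDSCs were pulled out with magnetic beads, and both libraries shared 24 h of co-culture with MC38 cells. No label says how many mice each library pooled.

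The libraries held 59393864 counts (LysM-cre) and 59506878 counts (floxed control). With 1 library per genotype no difference has a replicate check, and no p-value is given. Ratios of depth-scaled counts (CPM, each count divided by the total of its library) are LysM-cre over floxed control, with an exact 95% Clopper-Pearson interval that covers counting error only. Mettl3, which encodes the catalytic subunit of the m6A methyltransferase, had 3.92 FPKM in the LysM-cre library and 4.16 FPKM in the floxed control (ratio 0.945, 95% interval 0.876 to 1.02). The targeted gene therefore does not separate the libraries at the level of the whole gene, so the name of the LysM-cre library below is that of its label. Lyz2, the lysozyme 2 gene, did differ, at 3006 FPKM in the LysM-cre library and 5400 FPKM in the floxed control (ratio 0.557, 95% interval 0.554 to 0.559). Whether its lower level comes from the Cre at that locus or from the cell mix was not tested. MDSC markers were present in both, with 12 of 12 neutrophil and 9 of 9 monocyte markers kept. All 9 macrophage, 9 B and plasma cell and 7 eosinophil markers were kept too, so this does not single out MDSCs.

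As background, an activated receptor tyrosine kinase binds GRB2 through its SH2 domain, and GRB2 holds SOS1 at the membrane, where SOS1 loads RAS with GTP. RAS then starts the cascade of RAF, MEK1 (Map2k1) and ERK1 (Mapk3), which drives growth and survival of myeloid cells under colony-stimulating factors. Stress and inflammatory signals use parallel arms, in which MKK7 (Map2k7) activates the JNK kinases and other MAP2 kinases activate p38 kinases such as p38 alpha (Mapk14) and p38 delta (Mapk13). ABL1 is a tyrosine kinase of the cytoplasm and nucleus that acts on the cytoskeleton, adhesion and DNA damage responses, and it is the kinase part of the BCR-ABL fusion of chronic myeloid leukaemia.

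The start regions of Abl1 and Map2k7, both higher in the LysM-cre library, and of the adjacent p38 genes Mapk13 and Mapk14 are shown. Abl1, Map2k7 and Mapk13 stood out and can be read beside Mapk14, which did not. Each window runs from 250 bases before to 50 bases after a RefSeq start on GRCm38.p6, the assembly of mm10, and is written 5′ to 3′ on the strand of the gene. RefSeq lists 2 starts each for Abl1, Map2k7 and Mapk14, and the first listed is shown and described. Capitals mark GGGCGG or its reverse complement CCGCCC (the GC box bound by SP1) and CGGAAG or its reverse complement CTTCCG (the core letters of ETS sites).
Abl1 (chr2:31759689-31759988, plus strand): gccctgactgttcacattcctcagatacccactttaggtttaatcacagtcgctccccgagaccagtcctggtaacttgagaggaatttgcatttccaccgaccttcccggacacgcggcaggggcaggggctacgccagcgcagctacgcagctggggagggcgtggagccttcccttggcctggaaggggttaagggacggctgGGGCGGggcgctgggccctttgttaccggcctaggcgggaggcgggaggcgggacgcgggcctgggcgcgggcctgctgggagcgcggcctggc
Map2k7 (chr8:4238490-4238789, plus strand): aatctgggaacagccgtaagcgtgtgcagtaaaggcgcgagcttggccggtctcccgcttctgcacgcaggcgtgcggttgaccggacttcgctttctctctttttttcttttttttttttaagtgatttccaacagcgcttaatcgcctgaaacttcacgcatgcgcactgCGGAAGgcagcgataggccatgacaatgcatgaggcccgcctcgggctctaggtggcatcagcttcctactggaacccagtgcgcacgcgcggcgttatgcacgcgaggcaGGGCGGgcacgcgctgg
Mapk13 (chr17:28769067-28769366, plus strand): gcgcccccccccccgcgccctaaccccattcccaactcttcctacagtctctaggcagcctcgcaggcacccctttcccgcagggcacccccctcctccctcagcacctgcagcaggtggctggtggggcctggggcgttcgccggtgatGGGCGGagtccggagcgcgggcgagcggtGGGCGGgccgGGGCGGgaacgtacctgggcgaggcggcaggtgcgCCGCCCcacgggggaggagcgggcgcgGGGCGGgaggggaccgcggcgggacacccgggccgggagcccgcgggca
Mapk14 (chr17:28691092-28691391, plus strand): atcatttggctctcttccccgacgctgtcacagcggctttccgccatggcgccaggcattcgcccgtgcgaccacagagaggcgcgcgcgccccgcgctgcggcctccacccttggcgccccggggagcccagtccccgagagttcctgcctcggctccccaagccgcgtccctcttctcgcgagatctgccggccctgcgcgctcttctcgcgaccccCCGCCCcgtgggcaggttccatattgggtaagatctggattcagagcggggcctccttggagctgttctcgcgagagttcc

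The Map2k7, Mapk13 and Mapk14 starts lay 0, 20 and 13 bases inside the start of the deposited row, whereas the Abl1 start lay 71.56 kb inside its row, within the gene. GC boxes numbered 5 in the Mapk13 window and 1 each in those of Abl1, Map2k7 and Mapk14. An ETS core was found once, in the Map2k7 window. Among 27025 RefSeq windows of the same length, 35.9% held a GC box and 17.2% held an ETS core. These windows were not filtered by gene type or level, whereas the 8 genes are all protein-coding and kept, so the sets are unlike. GC content was 78.0% for Mapk13, 68.7% for Mapk14, 67.0% for Abl1 and 58.0% for Map2k7, against a median of 52.7%. RefSeq windows were found for 7 of the 8 genes, and Mapk3 had none. The Grb2 window, not shown, lay 8.67 kb inside the deposited row and held 0 GC boxes and 0 ETS cores at 46.7% GC. Of the other windows not shown, Sos1 held 0 GC boxes (70.0% GC) and Map2k1 held 4 (69.0% GC), each with 0 ETS cores. Windows with and without a GC box thus occurred both among the genes that stood out and among the others. These are letters in a reference genome, and binding was not measured.

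Because Mettl3 writes m6A within short motifs of which GGACT is a common form, GGACT was counted in the GENCODE M21 transcript with the longest coding sequence of each gene. It is shown for the 4 genes that stood out, in 25 bases of the transcript nearest the end of the coding sequence, with the motif in capitals.
Abl1 (chr2:31801962-31801986, plus strand, 3′ UTR): tggggacaggGGACTggggagctgg
Map2k7 (chr8:4245773-4245797, plus strand, coding): gagtccccaaGGACTagtggagtcc
Grb2 (chr11:115649777-115649801, minus strand, coding): gcgctcctggGGACTtctccctgtc
Mapk13 (chr17:28778464-28778488, plus strand, coding): tagcccggaaGGACTcacggcgacg

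Map2k7 had 4 GGACT motifs (2.46 per kb) and Abl1 had 10 (1.58 per kb). The Abl1 motif shown lies beyond the end of the deposited Abl1 row, at 31800339. The Abl1 motifs were counted over the whole M21 transcript, which runs past that end. Mapk13 had 5 (1.70 per kb) and Grb2 had 4 (1.48 per kb). Of the genes that differed less, Mapk14 had 4 (1.12 per kb), Sos1 had 6 (0.711 per kb), Map2k1 had 1 (0.411 per kb) and Mapk3 had 0. The median over 10230 protein-coding genes kept was 1.05 per kb, with quartiles of 0.628 and 1.55, and 91% had at least 1 motif. Abl1, Map2k7, Grb2, Mapk13 and Mapk14 lay above that median, and Sos1, Map2k1 and Mapk3 below it. Methylation of these motifs was not measured, and a link between motif density and the differences was not tested.

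Across the 8 genes, Abl1 and Map2k7 were higher in the LysM-cre library, Grb2 and Mapk13 were lower, and Sos1, Map2k1, Mapk3 and Mapk14 stood near the same level in both. On the scale of log2 of the FPKM + 1 ratio, 2 of the 8 were at least 2-fold higher, against 1.31% of the 12526 genes kept, and 0 were at least 2-fold lower, against 1.18%. At 1.5-fold, 2 were higher (3.19% of all genes kept) and 2 were lower (3.28%). All 8 are protein-coding. Of the protein-coding genes kept, 0.605% were at least 2-fold higher and 0.468% lower, and at 1.5-fold 1.57% were higher and 1.58% lower. Since the genes were picked for these differences, nothing is read from the counts. In any amount, 2 were higher and 6 lower, against 50.3% and 49.7% of all genes kept. The count interval lay above 1 for 2, below 1 for 4 and across 1 for 2. The median log2 ratio was −0.09, against 0.00 over all genes kept.

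**Figure D1:**
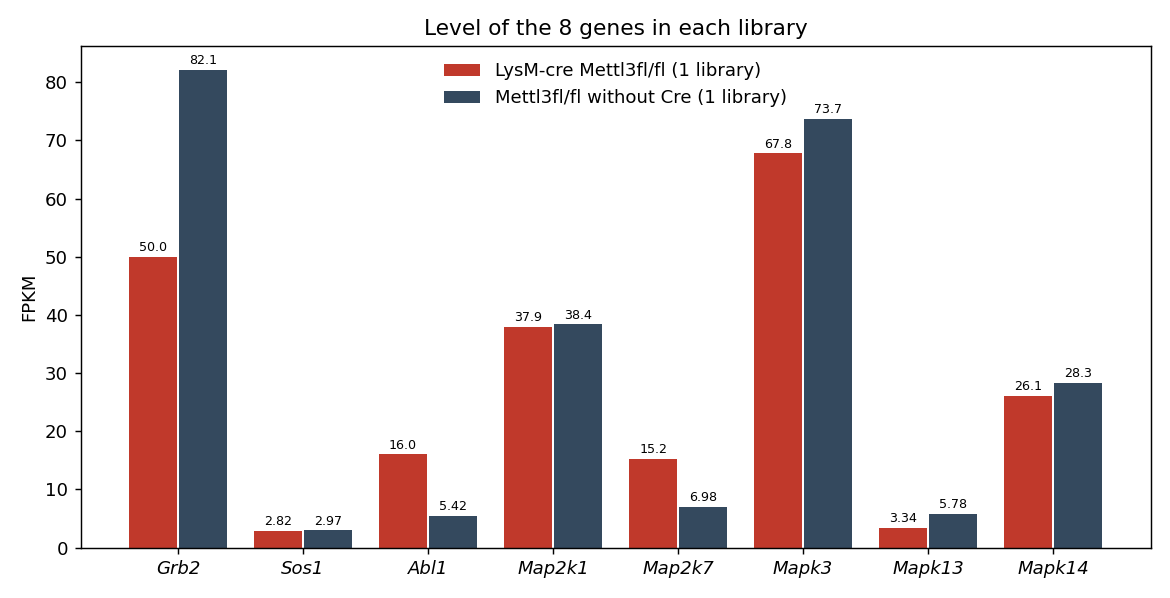
Bars give the FPKM of each of the 8 genes in the LysM-cre Mettl3fl/fl library (red, left) and the Mettl3fl/fl library without Cre (dark blue, right), 1 library each. Grb2 has the widest gap, at 50.0 FPKM in LysM-cre and 82.1 FPKM in the floxed control, while Abl1 and Map2k7 are the 2 genes with the higher bar on the left.

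The order of the levels, in FPKM, differed between the libraries. In the LysM-cre library it ran Mapk3, Grb2, Map2k1, Mapk14, Abl1, Map2k7, Mapk13 and Sos1. In the floxed control it ran Grb2, Mapk3, Map2k1, Mapk14, Map2k7, Mapk13, Abl1 and Sos1. Abl1 thus ranked above Map2k7 and Mapk13 in the LysM-cre library and below both in the floxed control. With 1 library each, it cannot be said which neighbours in these orders differ beyond the spread between mice.

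Grb2 is the adaptor at the head of the pathway. It stood at 50.0 FPKM in the LysM-cre library and 82.1 FPKM in the floxed control, on 9719 and 16003 counts. The ratio of depth-scaled counts was 0.608 (95% interval 0.593 to 0.624) and the log2 ratio −0.71. Its level exceeded that of 92.1% of genes kept in the LysM-cre library and 95.1% in the floxed control, so Grb2 remained an abundant transcript in both. Among the 12526 genes kept, Grb2 included, 298 had a log2 ratio as low or lower, 107 of them protein-coding.

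The relatives of Grb2 lay closer to level. Grap, a GRB2-related adaptor of blood cells, stood at 18.7 FPKM in the LysM-cre library and 22.1 FPKM in the floxed control (ratio 0.845, 95% interval 0.799 to 0.895). Grap2, which encodes the adaptor GADS, stood at 5.71 FPKM in the LysM-cre library and 5.83 FPKM in the floxed control (ratio 0.980, 95% interval 0.925 to 1.04). Grb2 made up 67.2% of the summed FPKM of these 3 genes in the LysM-cre library and 74.6% in the floxed control.

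Sos1, the RAS exchange factor that GRB2 carries, stood at 2.82 FPKM in the LysM-cre library and 2.97 FPKM in the floxed control, on 1995 and 2106 counts. Its ratio of 0.949 had an interval that included 1 (0.892 to 1.01). Sos2, the second exchange factor of this kind, stood at 6.28 FPKM in the LysM-cre library and 6.02 FPKM in the floxed control (ratio 1.04, 95% interval 0.994 to 1.09). Sos2 was the more abundant of the pair in both libraries, with 69.0% of their summed FPKM in LysM-cre and 66.9% in the floxed control.

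Abl1 had the largest log2 ratio of the 8 genes. It stood at 16.0 FPKM in the LysM-cre library and 5.42 FPKM in the floxed control, on 12395 and 4203 counts. The ratio was 2.95 (95% interval 2.85 to 3.06) and the log2 ratio 1.41. Counting Abl1 itself, 75 of the 12526 genes kept, 30 of them protein-coding, had a log2 ratio as high or higher. Abl1 was picked for its difference, so nothing is read from this rank. Abl1 exceeded 75.6% of genes kept in level in the LysM-cre library and 44.7% in the floxed control.

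Abl2, the other ABL kinase gene, was slightly lower, at 3.36 FPKM in the LysM-cre library and 3.75 FPKM in the floxed control (ratio 0.895, 95% interval 0.847 to 0.945). Abl1 made up 82.7% of the FPKM of the pair in the LysM-cre library and 59.1% in the floxed control. The deposited Abl1 row (chromosome 2, 31688376 to 31800339, plus strand) was the only 1 of the 8 whose span differed from GENCODE M21, which places the end of the gene at 31804227. The last coding base of the M21 transcript lies beyond the end of the deposited row. No source used here tells which exons the Abl1 counts cover, and a shift between Abl1 isoforms cannot be told apart from a change of the whole gene.

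Map2k1 encodes MEK1, the kinase that activates ERK. It stood at 37.9 FPKM in the LysM-cre library and 38.4 FPKM in the floxed control, on 8570 and 8693 counts (ratio 0.988, 95% interval 0.959 to 1.02). Map2k2, which encodes MEK2, stood at 15.1 FPKM in the LysM-cre library and 15.2 FPKM in the floxed control (ratio 0.995, 95% interval 0.959 to 1.03). Both MEK genes were thus within counting error of an equal level.

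Map2k7 encodes MKK7, an activator of JNK. It stood at 15.2 FPKM in the LysM-cre library and 6.98 FPKM in the floxed control, on 3892 and 1788 counts. The ratio was 2.18 (95% interval 2.06 to 2.31) and the log2 ratio 1.03, just past the 2-fold line of 1. Among all genes kept, Map2k7 included, 155 had a log2 ratio as high or higher, 57 of them protein-coding.

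Map2k4, which encodes MKK4, the other activator of JNK, did not share this difference, at 11.7 FPKM in the LysM-cre library and 11.6 FPKM in the floxed control (ratio 1.01, 95% interval 0.961 to 1.05). Map2k7 made up 56.6% of the FPKM of the pair in the LysM-cre library and 37.5% in the floxed control. The JNK genes themselves summed to 7.73 FPKM in the LysM-cre library and 7.62 FPKM in the floxed control, with Mapk10, known from neurons, at 0 counts in both.

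Mapk3 encodes ERK1. It stood at 67.8 FPKM in the LysM-cre library and 73.7 FPKM in the floxed control, on 10196 and 11122 counts (ratio 0.918, 95% interval 0.894 to 0.944). It was the most abundant of the 8 genes in the LysM-cre library and the second most abundant in the floxed control.

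Mapk14 and Mapk13 lie in tandem on chromosome 17, with 20890 bases between their rows. Mapk14, the gene of p38 alpha, stood at 26.1 FPKM in the LysM-cre library and 28.3 FPKM in the floxed control, on 7609 and 8281 counts (ratio 0.921, 95% interval 0.892 to 0.950). Mapk13, the gene of p38 delta, stood at 3.34 FPKM in the LysM-cre library and 5.78 FPKM in the floxed control, on 704 and 1219 counts. Its ratio was 0.579 (95% interval 0.527 to 0.635) and its log2 ratio −0.64. Mapk13 had the fewest counts of the 8 genes, and its interval lay below that of its neighbour. Among all genes kept, Mapk13 included, 352 had a log2 ratio as low as that of Mapk13 or lower, 132 of them protein-coding.

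The remaining p38 genes did not follow Mapk13. Mapk11 (p38 beta) stood at 3.58 FPKM in the LysM-cre library and 3.33 FPKM in the floxed control (ratio 1.08, 95% interval 0.964 to 1.20). Mapk12 (p38 gamma) had 0.522 FPKM in LysM-cre and 0.489 FPKM in the floxed control, below the minimum. Mapk14 supplied most p38 FPKM in both libraries (77.8% in LysM-cre and 74.7% in the floxed control), and Mapk13 supplied 9.98% in LysM-cre and 15.2% in the floxed control. The 4 genes together summed to 33.5 FPKM in LysM-cre and 37.9 FPKM in the floxed control.

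**Figure D2:**
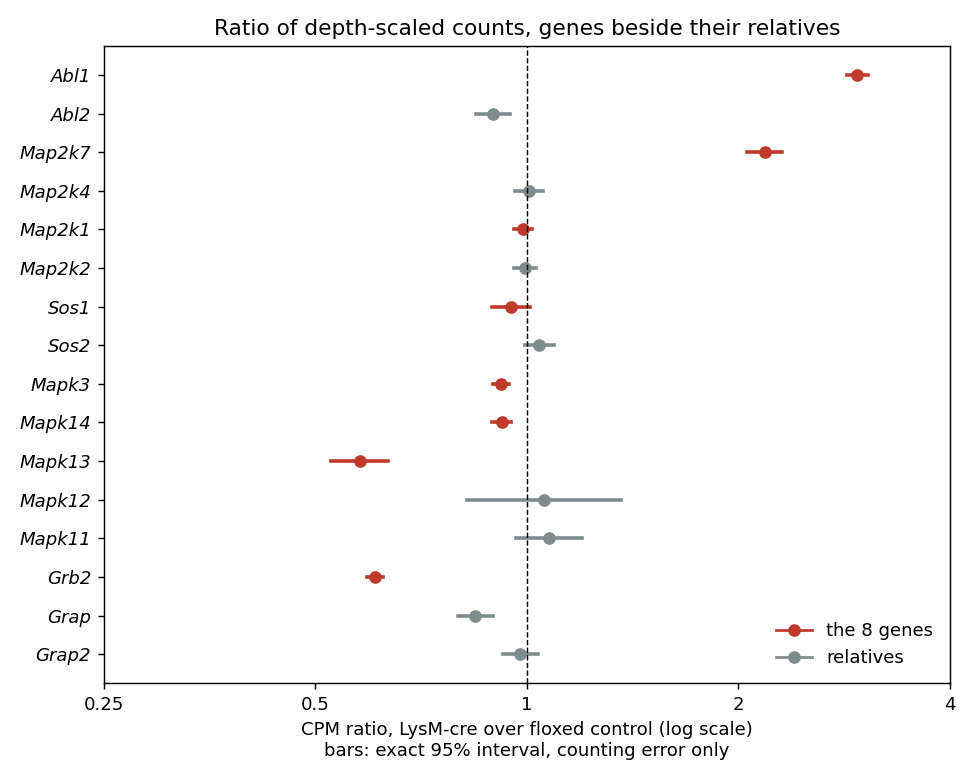
Points give the CPM ratio, LysM-cre over floxed control, on a log axis, and bars its exact 95% interval for counting error, for the 8 genes (red) and relatives of 7 of them (grey). Abl1 (2.95) and Map2k7 (2.18) lie right of 1 and Grb2 (0.608) and Mapk13 (0.579) left of it, while the relatives run between 0.845 for Grap and 1.08 for Mapk11.

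Rows that share coordinates with the 8 genes held few counts. Gm11702, a processed pseudogene row within Grb2, held 2 counts in the LysM-cre library and 6 in the floxed control. AL929275 within Abl1 held 1 count in each library, and Gm13427 across the start of Abl1 held 0 in each. Gm49320 across Map2k7 held 10 counts in LysM-cre and 24 in the floxed control. Gm4356 within Mapk14 held 51 counts in the LysM-cre library and 137 in the floxed control. Over Map2k1 on the opposite strand, Uchl4 held 24 counts in LysM-cre and 77 in the floxed control, while Gm48855 held 4 and Gm24106 held 0 in each library. Arhgef33 at the end of Sos1 held 0 counts in LysM-cre and 6 in the floxed control. Adding these rows left all 8 log2 ratios within their counting intervals. None of the 8 had a pseudogene row with its own description.

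The rows next to the 8 genes describe the surrounding regions. Beside Abl1, Exosc2, a subunit of the RNA exosome, stood at 3.64 FPKM in the LysM-cre library and 3.59 FPKM in the floxed control, and Qrfp, a neuropeptide gene, at 0.765 FPKM in LysM-cre and 0.860 FPKM in the floxed control. Beside Map2k7, Tgfbr3l held 113 counts in LysM-cre and 85 in the floxed control, and Lrrc8e held 0 in each library. Beside Grb2, the pseudogene row Gm11703 stood at 14.7 FPKM in LysM-cre and 10.9 FPKM in the floxed control. On the far side of Mapk13, Gm49864 held 19 counts in LysM-cre and 12 in the floxed control.

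For the other genes, Slc26a8 beside Mapk14 held 36 counts in LysM-cre and 30 in the floxed control. Gdpd3 beside Mapk3 held 501 counts in LysM-cre and 461 in the floxed control, and Gm44855 on its other side held 4 in LysM-cre and 0 in the floxed control. Beside Map2k1, Snapc5 held 1779 counts in LysM-cre and 1679 in the floxed control, and Tipin held 545 in LysM-cre and 590 in the floxed control. Beside Sos1, Cdkl4 held 102 counts in LysM-cre and 62 in the floxed control, and Gm10190 held 0 in each library.

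Beyond the 8 genes, the surrounding pathways stood close to level. The 10 pathway lists held 217 other genes, all found in the table, of which 187 were kept. Of these, 86 were higher and 101 lower in the LysM-cre library, with a median log2 ratio of −0.02 against 0.00 over all genes kept. On the FPKM + 1 scale, which understates differences of low genes, none was at least 2-fold higher or lower. At 1.5-fold, 2 were higher and 3 were lower, or 2.67% of the 187. All 187 were protein-coding, and 3.15% of the protein-coding genes kept were past 1.5-fold. At 2-fold, 0.605% of the protein-coding genes kept were higher and 0.468% were lower. The lists were therefore about as level as protein-coding genes in general. By CPM ratio, 0 were at least 2-fold higher and 2 at least 2-fold lower, and at 1.5-fold 4 were higher and 5 were lower. Shares over all genes kept are not given by CPM ratio.

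Upstream of GRB2, 13 of 20 growth factor and cytokine receptor genes were kept, 6 higher and 7 lower (median −0.07). The most abundant were Csf1r, the receptor for M-CSF, at 481 FPKM in the LysM-cre library and 456 FPKM in the floxed control, and Csf3r, the receptor for G-CSF, at 441 FPKM in LysM-cre and 492 FPKM in the floxed control. Of 29 adaptor and docking genes kept, 12 were higher and 17 lower (median −0.02). Ptpn6, the gene of the phosphatase SHP-1, stood at 217 FPKM in the LysM-cre library and 232 FPKM in the floxed control, and the docking protein gene Dok3 at 110 FPKM in LysM-cre and 116 FPKM in the floxed control.

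Of 25 genes for RAS-family GTPases and their regulators kept, 11 were higher and 14 lower (median −0.02). Rap1b, a GTPase of integrin activation, stood at 222 FPKM in the LysM-cre library and 213 FPKM in the floxed control, and Rasa3, a GTPase-activating protein, at 88.6 FPKM in LysM-cre and 87.7 FPKM in the floxed control. Of 26 MAP3 and MAP4 kinase genes kept, 14 were higher and 12 lower (median 0.00). Map3k3 stood at 57.6 FPKM in the LysM-cre library and 60.0 FPKM in the floxed control, and Map4k2 at 32.5 FPKM in LysM-cre and 33.9 FPKM in the floxed control. Of the 5 other MAP2 kinase genes, 1 was higher and 4 lower (median −0.01), with Map2k3, an activator of p38, at 17.1 FPKM in LysM-cre and 17.3 FPKM in the floxed control. Of 7 other MAP kinase genes kept, 5 were higher and 2 lower (median 0.08), with Mapk7, which encodes ERK5, at 7.57 FPKM in LysM-cre and 8.36 FPKM in the floxed control.

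Of 19 scaffold and regulator genes kept, 9 were higher and 10 lower (median −0.01). The scaffold gene Iqgap1 stood at 64.4 FPKM in the LysM-cre library and 67.0 FPKM in the floxed control, and Ywhaz, a 14-3-3 gene, at 67.5 FPKM in LysM-cre and 68.0 FPKM in the floxed control. Of 13 phosphatase genes kept, 5 were higher and 8 lower (median −0.08). Dusp1, which inactivates p38 and JNK, stood at 553 FPKM in the LysM-cre library and 592 FPKM in the floxed control, and Dusp6, which inactivates ERK, at 62.9 FPKM in LysM-cre and 62.2 FPKM in the floxed control.

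At the receiving end, 33 of 34 substrate kinase and transcription factor genes were kept, 17 higher and 16 lower (median 0.01). Fos, an immediate early gene of ERK signalling, stood at 742.0 FPKM in the LysM-cre library and 774 FPKM in the floxed control, and Zfp36, a substrate of the p38 pathway, at 596 FPKM in LysM-cre and 585 FPKM in the floxed control. Of 19 ABL partner genes kept, 7 were higher and 12 lower (median −0.04). Hcls1, a cortactin relative of blood cells, stood at 206 FPKM in the LysM-cre library and 204 FPKM in the floxed control. The lists hold transcript levels, and phosphorylation of these proteins was not measured.

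**Figure D3:**
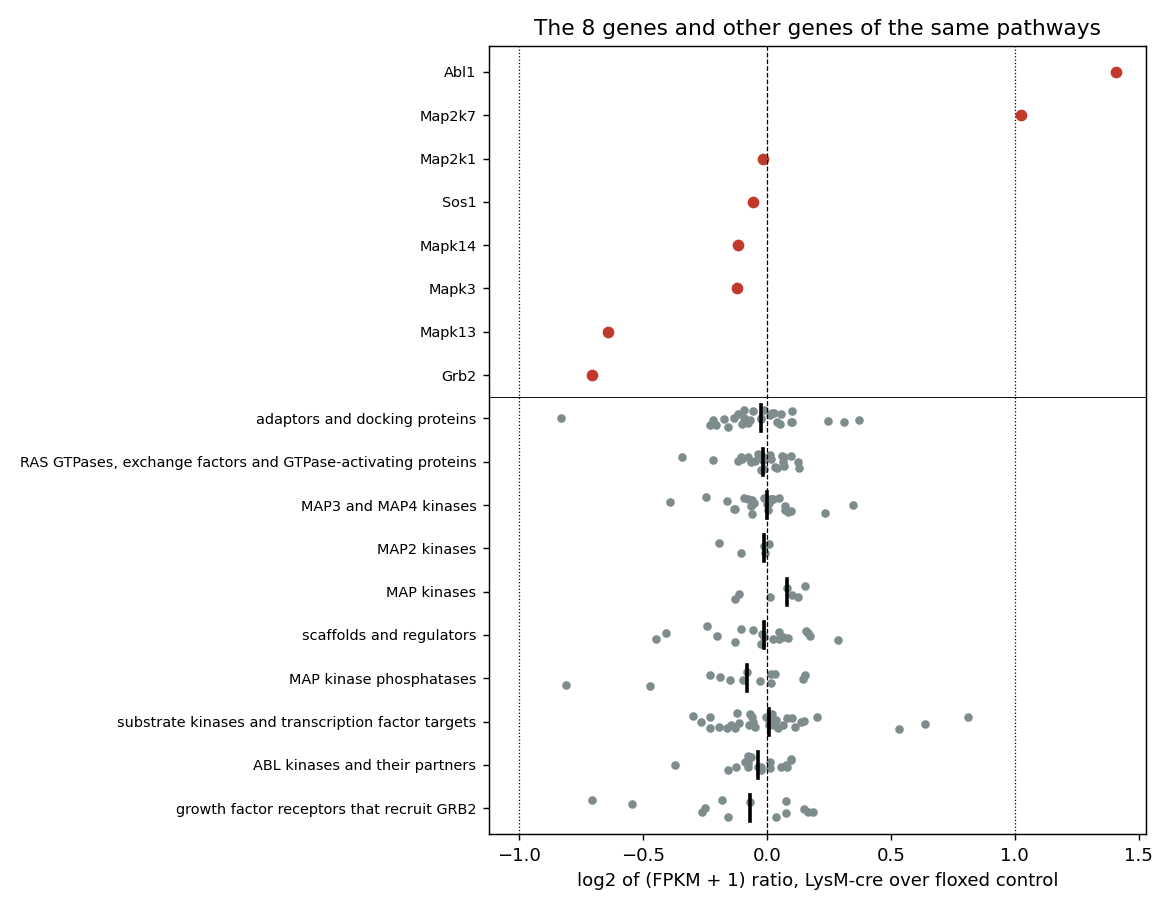
Each point is 1 gene and the x axis is the log2 of the FPKM + 1 ratio, LysM-cre over floxed control. The 8 genes stand in rows of their own at the top, and grey points are the kept genes of the 10 pathway lists with their medians as black bars. All grey points lie between −0.83 and 0.81, inside the dotted 2-fold lines, whereas Abl1 (1.41) and Map2k7 (1.03) lie outside them.

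Some genes had nearly the same pair of levels as the genes that stood out, by Euclidean distance in log2(FPKM + 1) over the 2 libraries among 10871 genes with a symbol. Nearest to Abl1 were Sgsh, a lysosomal sulfatase gene (17.2 FPKM in the LysM-cre library and 5.32 FPKM in the floxed control, distance 0.0993), and the immunoglobulin segment Ighv1-36 (14.7 FPKM in LysM-cre and 5.14 FPKM in the floxed control, distance 0.134). Nearest to Map2k7 were Ppp1ccb (15.3 FPKM in LysM-cre, 6.89 FPKM in the floxed control, distance 0.0151) and Cep85, a centrosome gene (15.0 FPKM in LysM-cre, 6.90 FPKM in the floxed control, distance 0.0240). Nearest to Grb2 were the segment Igkv6-13 (50.2 FPKM in LysM-cre, 87.0 FPKM in the floxed control, distance 0.0826) and Rpl35a-ps6 (52.7 FPKM in LysM-cre, 77.9 FPKM in the floxed control, distance 0.106). Nearest to Mapk13 were Urm1 (3.22 FPKM in LysM-cre, 5.84 FPKM in the floxed control, distance 0.0426) and Sumo2 (3.30 FPKM in LysM-cre, 5.59 FPKM in the floxed control, distance 0.0442). With only 2 libraries such a match is easily met.

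**Figure D4:**
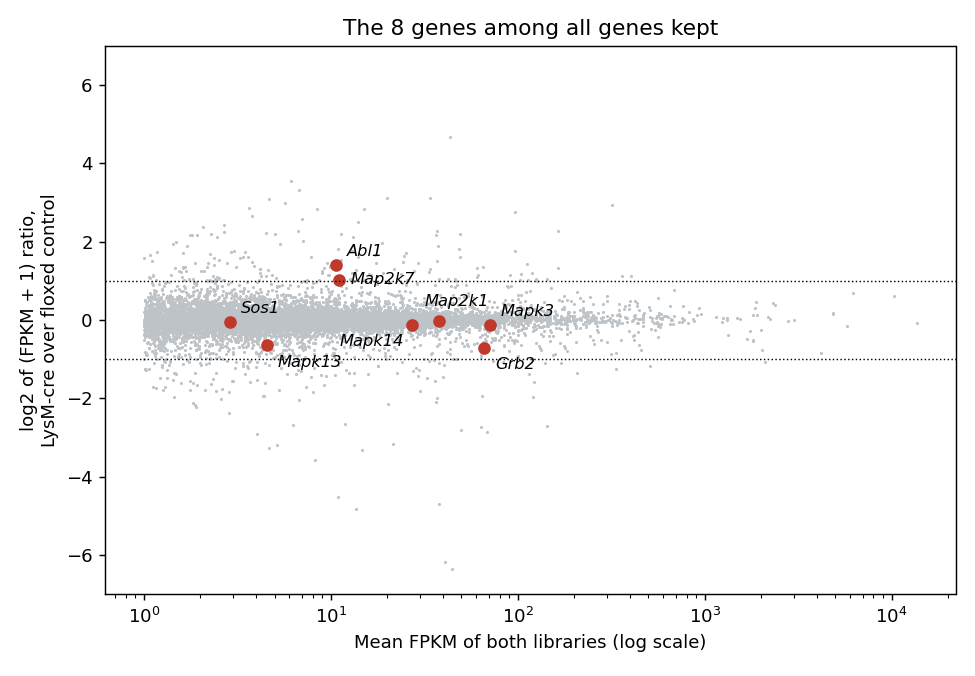
Grey points are the 12526 genes kept, with mean FPKM on a log x axis and the log2 of the FPKM + 1 ratio, LysM-cre over floxed control, on the y axis. The 8 genes are red and the dotted lines mark 2-fold. Abl1 and Map2k7 lie above the upper line, Grb2 and Mapk13 between the lines at −0.71 and −0.64, and the other 4 between −0.12 and −0.02.

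Markers of several cell types differed between the libraries along with these genes. Of 12 neutrophil markers 2 were higher and 10 lower, with a summed level of 11362 FPKM in the LysM-cre library and 12948 FPKM in the floxed control. Monocyte markers (7 of 9 higher) summed to 1502 FPKM in LysM-cre and 1336 FPKM in the floxed control, and macrophage markers (8 of 9 higher) to 2476 FPKM in LysM-cre and 2201 FPKM in the floxed control. Eosinophil markers (7 of 7 higher) summed to 882 FPKM in LysM-cre and 667 FPKM in the floxed control. B and plasma cell markers (8 of 9 lower) summed to 15348 FPKM in LysM-cre and 17336 FPKM in the floxed control, and no marker of these 5 lists was at 0. Within the B and plasma cell list, 2 genes named after their values were seen went opposite ways. Jchain, the joining chain of polymeric antibodies, stood at 555 FPKM in LysM-cre and 255 FPKM in the floxed control, and Ighm, the heavy chain of IgM, at 1360 FPKM in LysM-cre and 2848 FPKM in the floxed control. T and NK cell markers (3 higher and 4 lower of 7 kept) summed to 295 FPKM in LysM-cre and 283 FPKM in the floxed control. Dendritic cell markers (2 higher and 3 lower of 5 kept) summed to 97.0 FPKM in LysM-cre and 91.0 FPKM in the floxed control. Erythroid and platelet markers (5 higher and 1 lower of 6 kept) summed to 1374 FPKM in LysM-cre and 980 FPKM in the floxed control, with Ppbp at 0 in the floxed control. Epithelial markers that MC38 cells could carry summed to 4.19 FPKM in LysM-cre and 4.02 FPKM in the floxed control, with Krt19 at 0 in each library and Cldn7 at 0 in LysM-cre. Fibroblast and endothelial markers, of which 1 of 7 was kept, summed to 19.8 FPKM in LysM-cre and 18.6 FPKM in the floxed control. The part of this mix in the differences of Abl1, Map2k7, Grb2 and Mapk13 was not tested, and in bulk RNA fewer cells of a type and less RNA per cell cannot be told apart.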

How the data were processed

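RNA was measured in 1 library per genotype. The deposited counts are whole numbers per gene row and not normalized, per the file headers and values. FPKM was computed by the authors from depth and length, per the file headers. The submitters' processing notes name HISAT2 2.0.4, cutadapt 1.9, DESeq2, StringTie 1.3.4d and edgeR, with build mm10. How these were set, how strand was treated and where multi-mapping reads went is not stated in any source used here. Reads of overlapping or antisense genes may therefore be shared. Another 8 columns, of 4 libraries without labels, stayed unused. An FPKM of 0.0001 at a count of 0 was read as 0. Gene types were taken from GENCODE M21, in which 55141 row identifiers were found.

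A gene was kept at a mean of at least 1 FPKM. The log2 ratio used a pseudocount of 1 FPKM, which understates differences of low genes. CPM ratios used total counts, which limit the precision to the intervals given. Intervals treat paired reads and PCR copies as independent and cover counting error only. FPKM and CPM ratios differed by at most 0.053 (log2) over 14019 rows with more than 50 counts in both libraries. The 8 genes, the 10 pathway lists and the 10 marker lists were chosen with earlier results of these data known. Named are the 8 genes, their closest relatives and rows next to or overlapping them. Pathway genes at 2-fold or more and the 2 most abundant genes of each list are named too, as are Mettl3 and Lyz2. For Abl1, Map2k7, Grb2 and Mapk13 the 2 genes nearest in level are named. Values of some of these are not reported here. Alternatives were pseudocounts of 0.1 and 5 FPKM, TMM (edgeR 4.0.16), median-ratio scaling (DESeq2 1.42.0), TPM, other minimums, 1.5-fold and summed overlapping rows. The procedure was run on simulated counts with planted changes, which cannot stand for the spread between mice. R 4.3.3, Python 3.11.15, pandas 2.3.3 and scipy 1.17.1 were used.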

Additional observations from a re-analysis of the deposited data

How the results depend on the processing

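No paired analysis was possible because each genotype had 1 library. All 8 genes kept their direction under each of the 7 alternatives run for them. Abl1 (log2 ratio 1.41 as reported) moved beyond its counting interval to 1.55 at a pseudocount of 0.1 FPKM, 1.01 at 5 FPKM and 1.49 in TPM, and Mapk13 (−0.64) to −0.77, −0.37 and −0.75. Map2k7 (1.03) moved to 1.12 at 0.1 FPKM and to 0.76 at 5 FPKM, below the 2-fold line. Grb2 (−0.71) moved to −0.66 at 5 FPKM. The other pairs of gene and setting, 47 of 56, stayed within the counting interval, those with TMM, median-ratio scaling and summed overlapping rows included. No pseudogene row shared a description, so that sum was not run.

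The background counts of genes at least 2-fold higher and lower, 164 and 148 as reported, were 251 and 252 at a pseudocount of 0.1 FPKM, 62 and 54 at 5 FPKM, 376 and 402 in TPM with a minimum mean of 1 TPM, 90 and 73 at a mean of 5 FPKM or more, 400 and 411 at 1.5-fold, and 62 and 48 among protein-coding rows. On the FPKM + 1 scale the pathway lists had 0 genes past 2-fold and 5 past 1.5-fold, and by CPM ratio 2 were at least 2-fold lower. Pseudocounts act by construction on low genes, and more or fewer genes are kept under the other minimums. Depth limits Mapk13 most, with 704 counts in the LysM-cre library. No alternative here can stand for replicate mice.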

Other observations

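The 5 pathway genes past 1.5-fold on the FPKM + 1 scale were named after their values were seen. Mapkapk5, a kinase activated by p38 and by ERK3, stood at 7.80 FPKM in the LysM-cre library and 4.02 FPKM in the floxed control (CPM ratio 1.93, 95% interval 1.78 to 2.10). Ier3, a stress-induced survival gene, stood at 17.9 FPKM in the LysM-cre library and 11.1 FPKM in the floxed control (1.60, 1.47 to 1.75). Ppm1a, a phosphatase gene acting on p38 and JNK pathway kinases, stood at 2.80 FPKM in the LysM-cre library and 5.67 FPKM in the floxed control (0.495, 0.471 to 0.520). Insr, the insulin receptor gene, stood at 2.62 FPKM in the LysM-cre library and 4.92 FPKM in the floxed control (0.534, 0.508 to 0.561). Sla2, an adaptor that dampens antigen receptor signalling, stood at 3.17 FPKM in the LysM-cre library and 6.42 FPKM in the floxed control (0.494, 0.449 to 0.543). These 5 were 2.67% of the 187 pathway genes kept, all protein-coding, and 3.15% of the protein-coding genes kept were past the same line.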
